A study of Homo sapiens with 14 samples.

Results

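The contrast described here set the 2 extremes of CTNNB1 level in a human culture of medial ganglionic eminence (MGE)-like progenitors against each other: 3 libraries of cells with induced CTNNB1 overexpression (OE +Dox) and 5 libraries of CTNNB1 knockout cells (KO). These are 8 of the 14 libraries, chosen by their labelled genotype and treatment. Genes were compared where the normalized count reached 10 in at least 3 of the 8 libraries, which held for 16461 of 58051 genes. The wild type (WT, n = 3) and the overexpression line without doxycycline (OE -Dox, n = 3) give reference levels. They share the estimate of spread with the other groups but are compared in no test.

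CTNNB1 encodes beta-catenin, which joins cadherins to the actin cytoskeleton at cell junctions and carries the canonical WNT signal. Without WNT, a destruction complex of AXIN, APC, GSK3B and casein kinase marks beta-catenin for degradation. With WNT it accumulates, enters the nucleus and acts with TCF/LEF factors on target genes, many of which restrain the pathway. In the embryonic forebrain WNT and BMP signals mark the dorsal midline and posterior levels, whereas Sonic hedgehog (SHH) patterns the ventral side that holds the MGE, the source of many cortical GABAergic interneurons.

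All groups came from H9, an established human embryonic stem cell line, and were collected on day 25 of differentiation. On days 0 to 6 all were given 2 µM SB431542 and 200 nM LDN193189, which block TGF-beta and BMP receptors, and SHH at 250 ng/mL with the smoothened agonist purmorphamine at 0.3 µM on days 10 to 17. The KO cells carry the label Ctnnb1 knockout, and the other line carries an inducible Ctnnb1 overexpression. The OE +Dox cells alone received doxycycline, at 0.1 µg/mL on days 17 to 25, and each library started from 500 ng of RNA. How the knockout was made, which form of CTNNB1 was induced, whether a line is 1 clone and whether replicates are separate differentiations is not given in the labels. The p-values therefore measure the spread between these libraries, which may be technical, and the cell line, doxycycline and the CTNNB1 level cannot be told apart in this contrast.

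Libraries held 5233270 to 5639725 reads in genes, recovered from the normalized values as described under processing. Mitochondrially encoded genes took 2.51 to 3.03% of reads in OE +Dox and 2.18 to 2.53% in KO. The first principal component of the 8 libraries carried 75.8% of the variance and separated the groups. No libraries of a group were alike within sampling noise. Levels below are normalized counts, and a log2 fold is OE +Dox minus KO after adding 1 to each count, with its standard error (SE) and Benjamini-Hochberg adjusted p from limma. A gene is called higher or lower where that p is under 0.05.

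The targeted gene checked the labels at the overexpression end. CTNNB1 (ENSG00000168036, hg38 chromosome 3, 41194741 to 41260096, plus strand) had normalized counts of 2483, 2779, 2386, 2178 and 2090 in the KO libraries and 26028, 23861 and 31290 in the OE +Dox libraries. Every OE +Dox library was above every KO library, with means of 27060 ± 3820 (SD, n = 3) and 2383 ± 271 (SD, n = 5), a ratio of 11.4. The log2 fold was 3.50 (SE 0.13, adjusted p = 7.2e-13), and an exact two-sided permutation test over the 8 libraries gave p = 0.0357, the smallest its 56 arrangements allow. WT libraries lay at 3248 to 4392 and OE -Dox libraries at 3084 to 3633. Transcripts of the gene were thus still counted in KO. Gene totals do not show which exons the reads came from, so they do not check how the knockout acts on the protein.

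Between the extremes 5456 of the 16461 genes were called, which is 33.1%, with 2816 higher (17.1%) and 2640 lower (16.0%) in OE +Dox. The groups did not overlap for 5538 genes (33.6%), and for 87.7% of the called genes. Changes of at least 2-fold on the log2 scale were called for 1495 genes higher and 1336 lower, and changes of at least 8-fold for 473 higher and 94 lower. Some of these had to differ by the filter: 694 genes passed it through OE +Dox alone, of which 576 were called higher, and 1276 passed through KO alone, of which 533 were called lower. The median log2 fold over all genes tested was 0.02. The shares of all genes tested, 17.1% higher and 16.0% lower, are the background for each count of list members below.

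**Figure D1:**
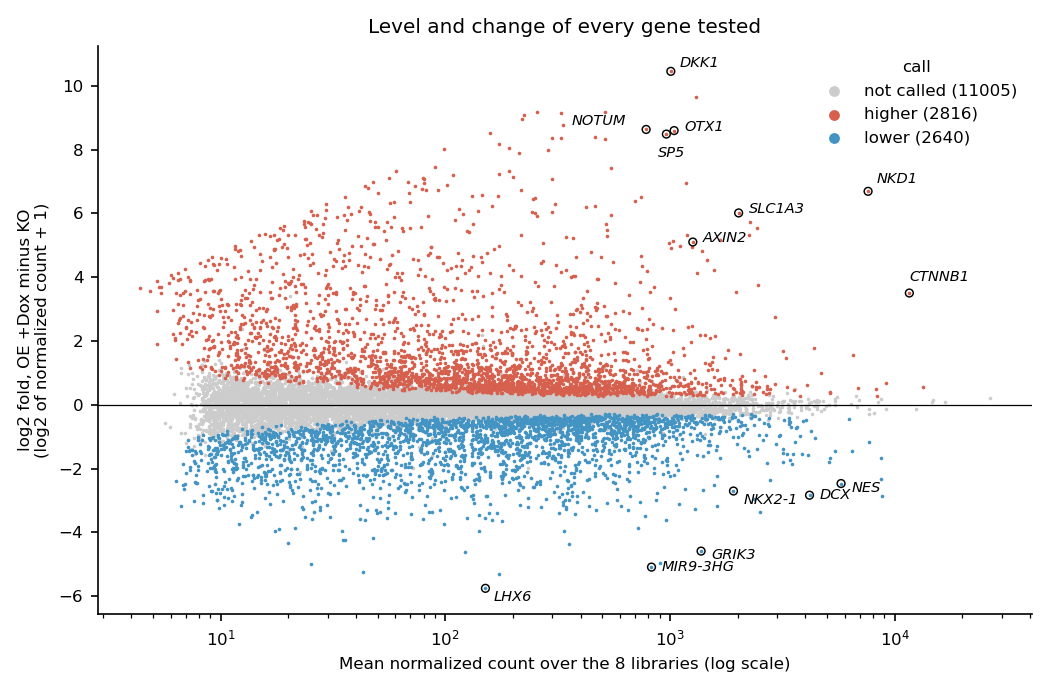
Mean normalized count over the 8 libraries (horizontal, log scale) against the log2 fold of OE +Dox minus KO (vertical) for each of the 16461 genes tested, coloured by call, with named genes circled. The rises reach a log2 fold of 10.45 for DKK1, and the falls reach -5.76 for LHX6.

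Genes of the WNT feedback list, known targets of the pathway in the receiving cell, were called higher or not called. Of 24 on this list, which includes the secreted ligands FGF20, FGF9 and BMP4, 23 were tested, 19 were called higher and 0 lower, with a median log2 fold of 3.70. Of the 23, 8 passed the filter through OE +Dox alone. NKD1, which binds Dishevelled and dampens the pathway, had 178, 212, 134, 221 and 230.0 in KO and 17918, 19541 and 22553 in OE +Dox. That is a ratio of 102 (log2 fold 6.69, SE 0.17, adjusted p = 1.1e-14). The lowest OE +Dox library was far above the highest KO library, and both references stayed low, at 236 to 338 in WT and 209 to 243 in OE -Dox. AXIN2, the inducible scaffold of the destruction complex, had 112, 98.2, 77.5, 95.2 and 84.1 in KO and 3044, 3374 and 3232 in OE +Dox, a log2 fold of 5.10 (SE 0.14, adjusted p = 2.0e-14).

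SP5, a zinc-finger repressor that WNT induces, was close to the limit of detection in KO. Its KO libraries had 6.47, 5.67, 2.83, 8.98 and 8.05 and its OE +Dox libraries 1977, 2734 and 2972 (log2 fold 8.49, SE 0.26, adjusted p = 1.7e-13). TNFRSF19, a receptor of the tumour necrosis factor family, had 15.7, 20.8, 29.3, 25.2 and 15.2 in KO and 2275, 1820 and 1406 in OE +Dox (log2 fold 6.38, adjusted p = 1.4e-12). The groups did not overlap for either gene, as for 87.7% of all called genes. RNF43 and ZNRF3, ubiquitin ligases that clear Frizzled receptors from the cell surface, rose by log2 folds of 6.45 and 2.98. TBXT, CDX1 and CDX2, factors of the primitive streak and the posterior embryo, were close to absent in KO. TBXT had 0 reads in all 5 KO libraries and 17.5, 58.6 and 19.4 in OE +Dox. Against 3 reads per KO library, its OE +Dox mean was at least 11.5-fold higher and its lowest OE +Dox library at least 6.19-fold higher. CDX1 and CDX2 had 1 KO read each and 22.1 to 59.5 and 10.1 to 18.5 in OE +Dox, ratios of 198 and 75.1 with exact 95% counting intervals of 35.7 to 8079 and 13.2 to 3108. CCND1, a D cyclin often listed as a WNT target, was not called, at 714, 1129, 574, 619.8 and 761 in KO and 742, 1260 and 1006 in OE +Dox (log2 fold 0.41, SE 0.21, adjusted p = 0.15). The groups overlapped, and CCND1 was called higher without KO replicate 2 or without OE +Dox replicate 1, at log2 folds of 0.53 to 0.61.

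TCF/LEF factors recognise short DNA words, among them CTTTGAA and CTTTGAT, the forms searched here. Other forms were not searched, marked or counted. Promoter sequence is shown for SP5 and DKK1 because both are among the 12 largest rises and hold such words close to the start. RefSeq promoters (GRCh38.p14, 250 bases before to 50 after a start) were searched on both strands. In the lines below, 5′ to 3′ on the gene's strand, capitals mark the words, which do not overlap each other.
SP5: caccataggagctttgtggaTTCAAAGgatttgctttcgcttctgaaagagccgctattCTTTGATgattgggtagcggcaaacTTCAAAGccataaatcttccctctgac
DKK1: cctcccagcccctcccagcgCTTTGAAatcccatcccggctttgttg
The SP5 stretch is chr2:170715169-170715279 on the plus strand, and its 3 words begin 148, 109 and 84 bases before the start. The DKK1 stretch is chr10:52314166-52314212 on the plus strand, with its word 95 bases before the start. A word was present in 6.86% of all 35116 promoters and in at least 1 promoter of 8.35% of 27305 genes. Of the WNT feedback genes 14 had a promoter entry and 3 held a word (SP5, TBXT and CDX2), and of the secreted antagonists 9 had an entry and 2 held a word (DKK1 and TPBG). A word is a match of letters, not a measured binding site.

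Secreted and surface WNT antagonists made up several of the largest rises. Of 17 listed, 14 were tested, 9 rose and 3 fell (median log2 fold 3.70), and 5 of the 14 passed the filter through OE +Dox alone. DKK1, which blocks the LRP5 and LRP6 co-receptors, had 1.85, 0, 0, 0.898 and 1.79 in KO and 1392, 4374 and 2304 in OE +Dox. Its log2 fold of 10.45 (SE 0.41, adjusted p = 2.0e-12) was the largest rise by the naming rule, and OE +Dox replicate 2 held the most. NOTUM, an esterase that removes the lipid WNT needs, had 6.47, 1.89, 3.78, 4.49 and 5.37 in KO and 1685, 2688 and 1875 in OE +Dox (log2 fold 8.63, adjusted p = 2.5e-13). DKK4 and DKK2, relatives of DKK1, had 3 and 4 reads over the 5 KO libraries and 605 to 1196 and 152 to 265 in OE +Dox, ratios of 1582 (exact 95% counting interval 542 to 7690) and 288 (113 to 1065).

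KREMEN1, a cell-surface partner of the DKK proteins, had 95.1, 125, 46.3, 42.2 and 35.8 in KO and 1398, 1337 and 1365 in OE +Dox, and APCDD1, a membrane inhibitor, had 115, 102, 116, 111 and 80.5 and 3720, 7727 and 6128. WIF1, which binds WNT proteins, had 0 reads in all 5 KO libraries and 22.2, 91.1 and 74.7 in OE +Dox. Against 3 reads per KO library, its OE +Dox mean was at least 22.7-fold higher and its lowest OE +Dox library at least 7.82-fold higher. The antagonists that fell were FRZB, SFRP1 and DKK3. FRZB, a soluble Frizzled-related protein, had 1420, 1629, 1177, 1734 and 1626 in KO and 476, 368 and 282 in OE +Dox (log2 fold -2.03, SE 0.20, adjusted p = 2.7e-07), with all KO libraries above all OE +Dox libraries. Its WT libraries, at 139 to 224, were lower than both.

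**Figure D2:**
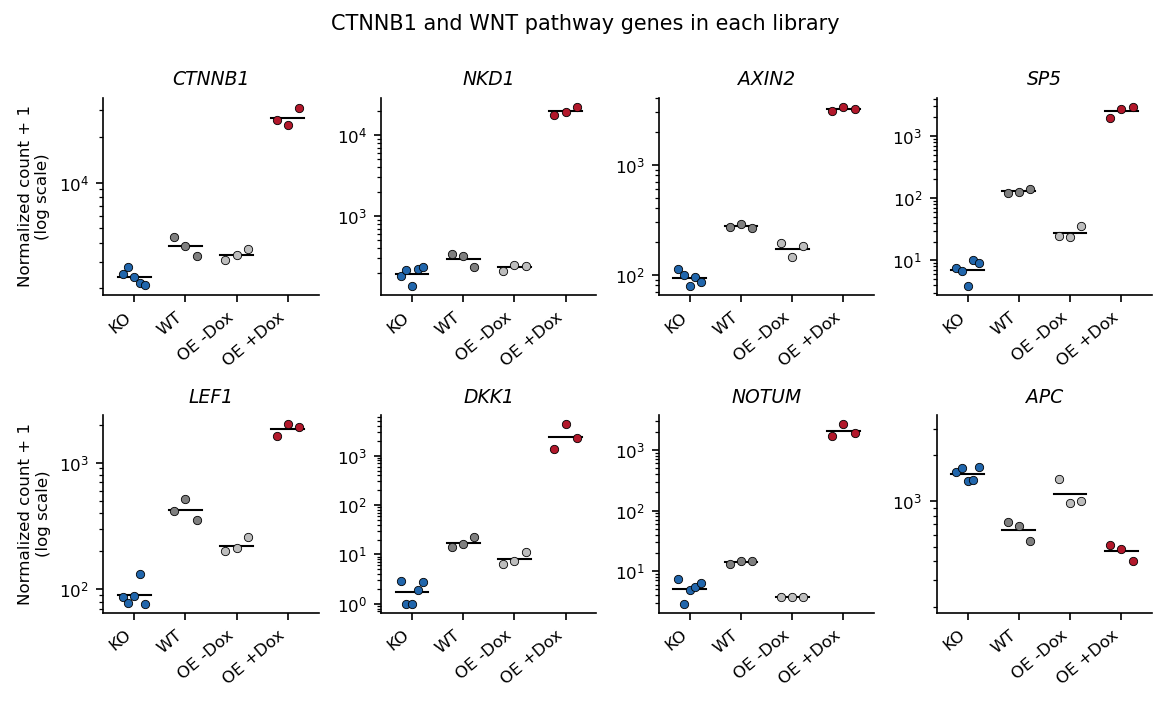
Normalized count plus 1 (log scale) of CTNNB1, 6 WNT-responsive genes and APC in each library of KO (n = 5), WT, OE -Dox and OE +Dox (n = 3 each), with points for libraries and bars for the mean of the log values. The OE +Dox points of the WNT-responsive genes lie above all others, and those of APC lie lowest, at 403 to 512.

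Of 21 WNT ligand and secretion genes 14 were tested, 7 rose and 1 fell, and 4 of the 14 passed the filter through OE +Dox alone. WNT16 had 0, 1.89, 0, 1.80 and 0 in KO and 66.5, 87.4 and 54.4 in OE +Dox, and WNT10A and WNT6, with 1 and 2 KO reads in all, reached 11.2 to 22.1 and 12 to 24.0. The ratio for WNT10A was 89.7 with an exact 95% counting interval of 15.8 to 3699, and that for WNT6 was 51.0 with an interval of 13.5 to 431. WNT7A, a ligand of neural progenitors, fell from 102, 109, 180.4, 149 and 115 in KO to 13.9, 27.0 and 3.69 in OE +Dox (log2 fold -3.37, SE 0.40, adjusted p = 8.6e-06), and WT held 314 to 445.

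Receptors went both ways, 10 of 20 tested genes higher and 7 lower (21 listed), with 3 passing the filter through OE +Dox alone. FZD10 had 0, 1.89, 0, 3.59 and 2.68 in KO and 669, 1864 and 1572 in OE +Dox (log2 fold 9.17, SE 0.84, adjusted p = 1.7e-06). FZD5, another Frizzled, had 3868, 4056, 2480, 3071 and 4077 in KO and 377, 569 and 414 in OE +Dox (log2 fold -2.95, adjusted p = 5.6e-05). LGR4, a receptor for R-spondins that stabilises Frizzleds, fell from 1391, 1523, 1104, 1234 and 1204 to 219.8, 248 and 118. The 3 R-spondins called, RSPO1, RSPO3 and RSPO4, rose. RSPO1 had 19.4, 26.4, 17.0, 19.8 and 17.0 in KO and 216, 239.8 and 331 in OE +Dox, and RSPO3 had 2.77, 1.89, 3.78, 1.80 and 0 and 43.4, 32.5 and 24.9, with WT above both at 169.8 to 191. ROR1, a receptor kinase of the non-canonical branch, rose by a log2 fold of 2.81 (SE 0.22).

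On the destruction complex list, which does not hold AXIN2, 10 of 16 tested genes were not called. The median log2 fold was 0.04, beside 0.02 over all genes tested. Of the 16, 5 fell and 1 rose, beside 16.0% lower and 17.1% higher among all genes tested. The 1 that rose was DVL2, a Dishevelled gene that is on the list but is not part of the complex. Its call was lost without any of 6 single libraries (log2 fold 0.37, adjusted p = 0.034). APC had 1562, 1659, 1354, 1371 and 1672 in KO and 512, 483 and 403 in OE +Dox (log2 fold -1.71, SE 0.14, adjusted p = 3.3e-08), and its neural relative APC2 had 938, 1105, 1360, 1648 and 1557 and 385, 382 and 378. In both genes the 3 OE +Dox libraries were close to each other and below every KO library. GSK3B, the kinase of the complex, fell (KO 1129 to 1299, OE +Dox 709 to 756), with a log2 fold of -0.70 (SE 0.12). AMER1, which brings APC to the membrane, fell with a log2 fold of -1.10. Among 18 TCF/LEF factors and co-factors 5 rose and 6 fell, and without OE +Dox replicate 3, 3 were called higher. LEF1 had 85.9, 76.5, 86.9, 131 and 76.1 in KO and 1615, 2018 and 1902 in OE +Dox (log2 fold 4.35, adjusted p = 2.6e-12), and TCF7 rose with a log2 fold of 2.54. TCF7L1 and TCF7L2, the other two factors of the family, fell, with log2 folds of -0.79 and -0.87. Among 12 catenins and cadherin partners 6 rose and 2 fell. PKP4, a plakophilin-related junction protein, had 389, 351, 309.9, 387 and 320.3 in KO and 1841, 1971 and 1796 in OE +Dox, and the cadherins CDH6 and CDH4 had log2 folds of 2.11 and -1.89.

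**Figure D3:**
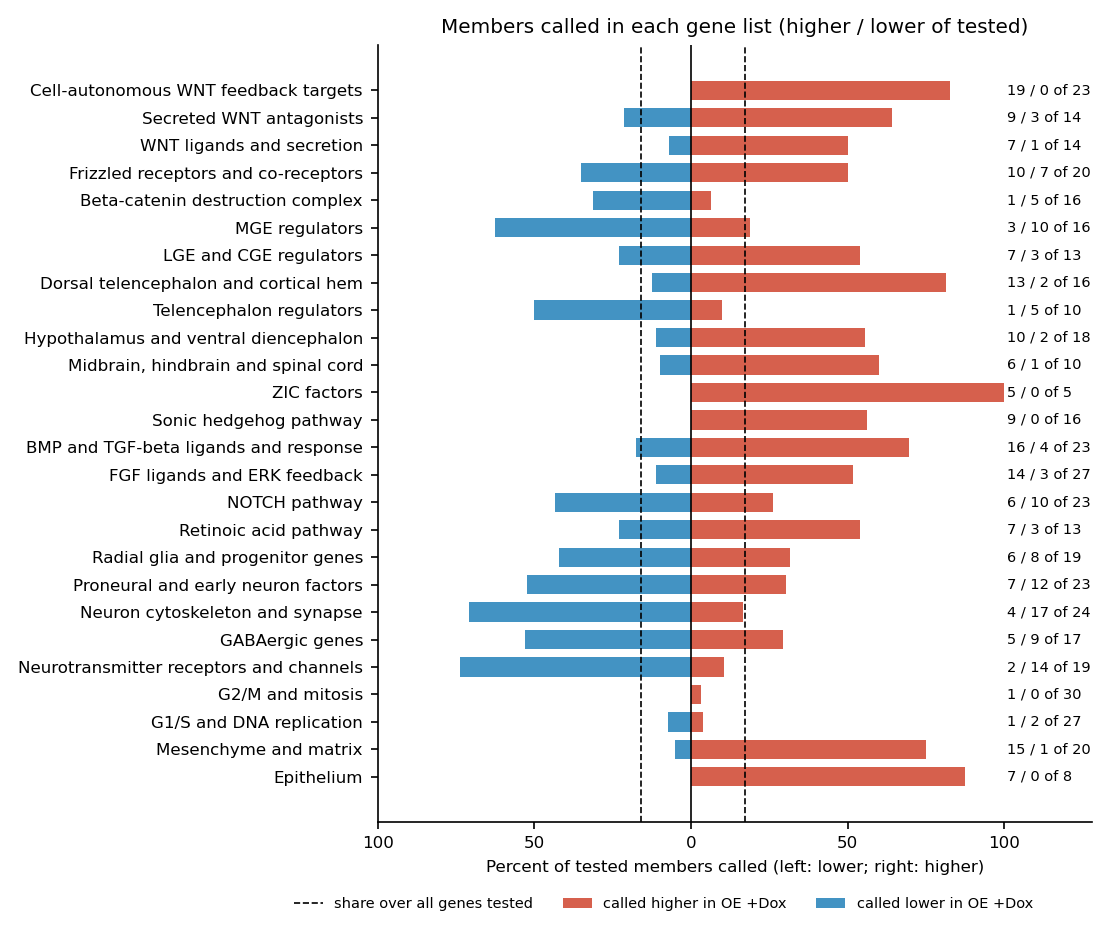
Percent of tested members called higher (right) and lower (left) in OE +Dox for 26 gene lists, with numbers of members at the right, and dashed lines at the shares over all genes tested, 17.1% higher and 16.0% lower. The WNT feedback list has 19 of 23 members higher, and the G2/M list has 1 of 30.

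Regulators of the MGE itself were mostly lower in OE +Dox. Of 16 tested 10 fell and 3 rose (median log2 fold -2.44), and 5 of the 16 passed the filter through KO alone. In bulk libraries, fewer cells of a type and less RNA per cell cannot be told apart. NKX2-1, the factor that defines the MGE, had 2387, 2584, 2412, 3010 and 3474 in KO and 910.5, 274 and 296 in OE +Dox (log2 fold -2.71, SE 0.34, adjusted p = 3.1e-05). It was present in all 14 libraries, with WT at 373 to 664 and OE -Dox at 1378 to 2394. LHX6, its target in migrating interneurons, had 279.9, 164, 345, 261 and 144 in KO and 9.23, 2.79 and 0.922 in OE +Dox. This was the largest fall by the naming rule, at -5.76 on the log2 scale (SE 0.49, adjusted p = 4.1e-07), and the lowest OE +Dox library held 1 read.

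The LIM factor LHX8 had 873, 684, 1107, 704 and 559 in KO and 97.0, 69.7 and 109 in OE +Dox, and its WT libraries, at 17.0 to 37.9, were lower than both. GBX1, a homeobox gene of ventral forebrain neurons, had 27.7, 25.5, 48.2, 48.5 and 51.9 in KO and 0.923, 0 and 0 in OE +Dox. OLIG2, of ventral progenitors and the oligodendrocyte lineage, fell (KO 129 to 202, OE +Dox 27.7 to 42.5), and DLX2, which drives GABAergic fate, fell too (KO 485 to 669, OE +Dox 28.6 to 83.6). The 3 members that rose were MAF, SHH and ZEB2, and without OE +Dox replicate 1, 1 in place of 3 was called higher. MAF, a factor of maturing interneurons that other cell types also use, had 29.6, 48.2, 50.1, 45.8 and 41.2 in KO and 533, 1084 and 932 in OE +Dox (log2 fold 4.23, SE 0.21, adjusted p = 5.0e-11).

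Of the 10 telencephalon regulators 5 fell and 1 rose, beside 16.0% lower and 17.1% higher among all genes tested. Without OE +Dox replicate 1, 2 and 3, 2, 2 and 3 of these regulators were called lower. SIX3, a homeobox gene of the anterior forebrain, had 474, 547, 327, 476 and 757 in KO and 202, 287 and 321 in OE +Dox (log2 fold -0.91, SE 0.24, adjusted p = 0.008), a call lost without OE +Dox replicate 1. SOX1, of neural progenitors, fell with a log2 fold of -0.68, and its call was lost without OE +Dox replicate 2 (adjusted p = 0.073). OTX2, which patterns forebrain and midbrain, rose, with a log2 fold of 0.90.

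Dorsal telencephalic and cortical hem genes were higher in OE +Dox in 13 of 16 tested members and lower in 2 (21 listed, 6 passing through OE +Dox alone). OTX1, a cortical homeobox gene, had 5.54, 8.50, 11.3, 5.39 and 2.68 in KO and 2311, 2784 and 3224 in OE +Dox, a log2 fold of 8.60 (SE 0.29, adjusted p = 1.5e-12). Its references were 620.1 to 921 in WT and 160.0 to 225 in OE -Dox, each library above every KO library. MSX1, a BMP-responsive gene of the dorsal midline, had 14.8, 12.3, 5.67, 17.1 and 17.0 in KO and 717, 445 and 511 in OE +Dox. PAX6, the dorsal progenitor factor, had 86.8, 94.4, 142, 139 and 43.0 in KO and 286, 548 and 466 in OE +Dox (log2 fold 2.16, adjusted p = 5.2e-05). WT, at 2186 to 2592, was above both extremes, as was OE -Dox at 889 to 924. LMX1A, the defining gene of the hem, stayed below the filter, at most 1.89 in KO and 7.39 to 19.5 in OE +Dox, beside 122 to 162 in WT. LHX2, the cortical selector gene, was one of the falls (KO 379.6 to 634, OE +Dox 91.2 to 169). EMX1 stayed under 5 counts in both groups.

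Genes of the neighbouring lateral and caudal eminences (LGE and CGE) rose in 7 and fell in 3 of 13 tested members. Of all genes tested 17.1% were called higher and 16.0% lower. In the list 1 member passed the filter through OE +Dox alone and 2 through KO alone. The genes given next are rises, and the lowest log2 fold of the list was -3.25. ZNF503, a striatal zinc-finger gene, had 31.4, 28.3, 28.3, 30.5 and 21.5 in KO and 867, 1437 and 1735 in OE +Dox (log2 fold 5.49, SE 0.21, adjusted p = 1.5e-12). PROX1, a factor of CGE interneurons, had 63.7, 53.8, 83.1, 89.8 and 77.8 and 1989, 1984 and 1594. NR2F2, another CGE marker, had 111, 123, 165, 261 and 135 in KO and 655, 2070 and 1036 in OE +Dox, and WT held more than either, 3712 to 4164. The groups did not overlap for any of these 3 genes, as for 87.7% of all called genes.

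Among the tested genes of the diencephalon and of more posterior levels, more rose than fell. Of 18 hypothalamus and diencephalon genes tested 10 were higher and 2 lower, and 8 of the 18 passed through OE +Dox alone and 3 through KO alone. The 2 lower members were OTP and NR5A1, and 1 was called without OE +Dox replicate 1 or 3. FOXA1, a floor plate factor, had 12.9, 11.3, 6.61, 8.98 and 6.26 in KO and 1098, 727 and 589 in OE +Dox, FOXB1 had 16.6, 10.4, 8.50, 21.6 and 10.7 and 440.5, 366 and 511, and BARHL2 had 0.924, 1.89, 1.89, 0 and 0 and 93.3, 80.9 and 114. Of 10 midbrain, hindbrain and spinal cord genes tested (21 listed) 6 rose and 1 fell, with 4 passing through OE +Dox alone. FGF8 and FGF17, signals of the isthmus that organise the midbrain, were clearly separated. FGF8 had 27.7, 34.0, 4.72, 10.8 and 66.2 in KO and 1052, 1019 and 2171 in OE +Dox, and FGF17 had 34.2, 20.8, 16.1, 24.3 and 37.6 and 1166, 1310 and 1536. EN1, the midbrain homeobox gene, had 1 read over the 5 KO libraries and 27.7, 217 and 91.2 in OE +Dox, a ratio of 625 with an exact 95% counting interval of 108 to 24050. Its partners EN2 and PAX2 stayed below the filter, at 6.51 to 27.7 and 8.31 to 13.9 in OE +Dox. In KO they had 2.77 to 6.61 and 1.89 to 7.39. The hindbrain marker HOXA2 was also below the filter, at 3.69 to 11.2 in OE +Dox, 0 to 1.80 in KO and 0 to 24.1 in WT.

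ZIC factors, zinc-finger genes of the dorsal neural tube and midline, rose in 5 of 5 tested members. ZIC2 had 68.4, 88.8, 78.4, 83.5 and 51.0 in KO and 1948, 3028 and 2899 in OE +Dox (log2 fold 5.13, SE 0.20, adjusted p = 1.9e-12), and ZIC5 had 13.9, 39.7, 36.8, 26.9 and 8.05 and 721, 914 and 998. ZIC4 had 207, 184, 170.1, 94.3 and 154 in KO and 3731, 3556 and 3590 in OE +Dox, and ZIC1 rose with a log2 fold of 2.74. The groups did not overlap for any of these 4 genes, as for 87.7% of all called genes.

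**Figure D4:**
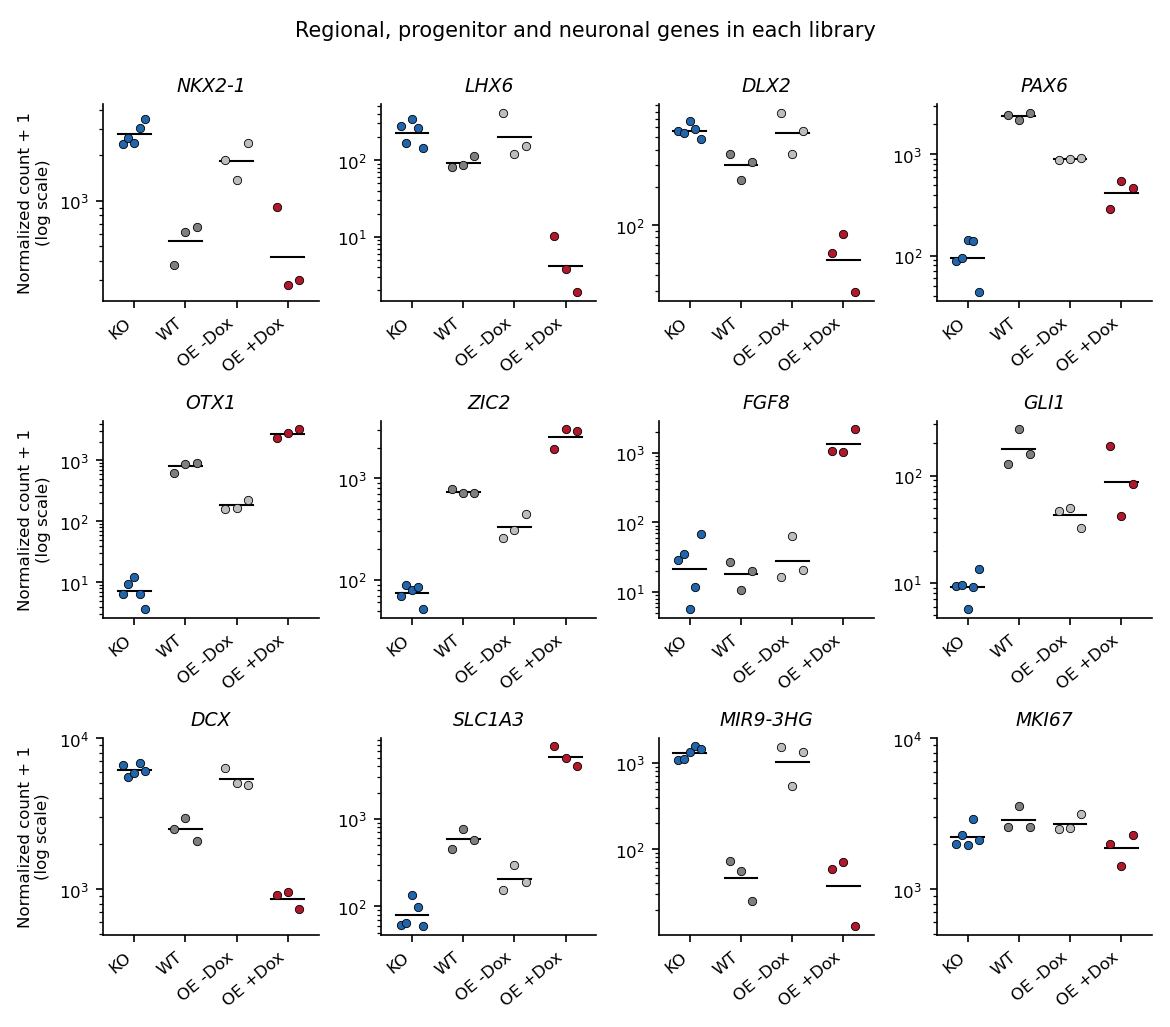
Normalized count plus 1 (log scale) of 12 regional, signalling, progenitor and neuronal genes in each library of KO (n = 5), WT, OE -Dox and OE +Dox (n = 3 each), with bars for the mean of the log values. NKX2-1, LHX6 and DCX lie lower in OE +Dox than in KO, OTX1, ZIC2, FGF8 and SLC1A3 lie higher, and MKI67 overlaps, at 1424 to 2274 in OE +Dox and 1948 to 2904 in KO.

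Both extremes had been given SHH, and members of its pathway rose or were not called. Of 16 SHH pathway genes 9 rose and 0 fell, with 3 passing the filter through OE +Dox alone. GLI1, the usual read-out of the pathway, had 8.31, 8.50, 4.72, 8.08 and 12.5 in KO and 188, 40.9 and 82.0 in OE +Dox (log2 fold 3.26, SE 0.39, adjusted p = 4.1e-06). Its WT libraries had 126, 268 and 157. GLI2, the main activator, had 33.3, 51.0, 69.9, 60.2 and 36.7 in KO and 247, 388 and 404 in OE +Dox, below WT at 469 to 683. DISP1, which releases the ligand, rose (KO 55.7 to 97.9, OE +Dox 305 to 557). PTCH1, the receptor and also a target, was not called, at 1182, 949.9, 774, 1259 and 1357 in KO and 1154, 933 and 702 in OE +Dox (adjusted p = 0.39), with both groups below WT at 2201 to 3254. SHH itself rose (log2 fold 1.09, SE 0.31, adjusted p = 0.013), a call lost without OE +Dox replicate 1 (adjusted p = 0.064).

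BMP and TGF-beta genes rose in 16 and fell in 4 of 23 tested members, with 6 passing through OE +Dox alone, and 2 in place of 4 were called lower without OE +Dox replicate 1 or 3. BMP4, a dorsal midline ligand, had 1.85, 0.944, 0.945, 4.49 and 2.68 in KO and 352, 619.9 and 406 in OE +Dox (log2 fold 7.25, SE 0.34, adjusted p = 2.2e-11), and its references stayed at 12.3 to 21.4 in WT and 9.97 to 13.0 in OE -Dox. BAMBI, a decoy receptor that BMP induces, had 10.2, 17.9, 11.3, 14.4 and 9.84 and 223, 314 and 247, and the ligand BMP6 rose, with a log2 fold of 3.41. Of 27 FGF genes tested 14 rose and 3 fell. The 3 members that passed the filter through OE +Dox alone, which favours a difference, were FGF20, FGF18 and FGF19, given next. FGF20 had 1 read over the 5 KO libraries and 501, 979.6 and 575 in OE +Dox, a ratio of 3629 with an exact 95% counting interval of 667 to 147100. FGF18 had 0, 1.89, 1.89, 1.80 and 1.79 and 276, 198 and 265, and FGF19 had 3.69, 7.55, 6.61, 8.98 and 3.58 and 368, 263 and 400.0. SPRY4, a feedback inhibitor of the FGF cascade, varied widely in KO, at 60.0, 265, 28.3, 22.5 and 73.4, and was not called against 109.9, 295 and 325 in OE +Dox (log2 fold 1.86, adjusted p = 0.1). Without KO replicate 2 it was called higher, at a log2 fold of 2.39.

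NOTCH pathway genes, which hold neighbouring progenitors back from differentiating, fell in 10 and rose in 6 of 23 tested members. Of the 23, 1 passed through OE +Dox alone. Among all genes tested 16.0% were called lower and 17.1% higher. The NOTCH genes given next are falls, and the highest log2 fold of the list was 2.47. NOTCH1 had 2965, 3147, 2774, 3024 and 3056 in KO and 997, 1156 and 841 in OE +Dox (log2 fold -1.59, SE 0.15, adjusted p = 1.2e-07), and its ligand DLL1 had 1331, 1424, 1511, 1642 and 1425 and 432, 374 and 192. DTX1 and LFNG, which modify NOTCH signalling, fell, with log2 folds of -2.30 and -2.36. Without OE +Dox replicate 2, 3 in place of 6 members were called higher. In the retinoic acid pathway 7 of 13 tested members rose and 3 fell, with 5 passing through OE +Dox alone. ALDH1A2, which makes retinoic acid, had 0, 2.83, 2.83, 2.69 and 1.79 in KO and 156, 99.4 and 135 in OE +Dox. CRABP2, which delivers retinoic acid to its receptors, fell (KO 763 to 1390, OE +Dox 261 to 356).

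Progenitor genes split. Of 19 radial glia genes tested 6 rose and 8 fell, beside 17.1% higher and 16.0% lower among all genes tested. SLC1A3, a glutamate transporter of radial glia, had 61.0, 63.3, 134, 97.9 and 59.1 in KO and 6740, 4945 and 4082 in OE +Dox (log2 fold 6.01, SE 0.28, adjusted p = 2.3e-10). The intermediate filament gene VIM rose (KO 2865 to 4171, OE +Dox 9727 to 12143). Its partner NES had 6678, 8800, 8655, 10374 and 7126 in KO and 2109, 1375 and 1124 in OE +Dox (log2 fold -2.47, SE 0.17, adjusted p = 4.9e-09), so these 2 filament genes moved in opposite directions. SOX9, a progenitor and gliogenic factor, fell (KO 796 to 1183, OE +Dox 93.1 to 193), and SOX3, of the neural progenitor SOXB1 family, fell as well (KO 915 to 2074, OE +Dox 49.8 to 237).

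Proneural genes are the basic helix-loop-helix switches of neurogenesis. NEUROG2 and NEUROG1, proneural genes of the dorsal forebrain, rose. NEUROG2 had 3.69, 2.83, 8.50, 8.98 and 0.895 in KO and 729, 132 and 111 in OE +Dox (log2 fold 5.46, SE 0.64, adjusted p = 1.0e-05), and NEUROG1 had 5.54, 3.78, 10.4, 8.08 and 1.79 and 40.6, 81.8 and 89.4. All 3 OE +Dox libraries were above all KO libraries for both genes, with replicate 1 the highest for NEUROG2. EOMES and TBR1, later steps of the cortical glutamatergic lineage, were also highest in replicate 1, with 499, 21.4 and 23.0 and 279.8, 64.1 and 108 in OE +Dox beside 1.85 to 9.88 and 0 to 19.8 in KO. Over the whole list 7 of 23 tested genes rose and 12 fell, with 4 passing through OE +Dox alone and 1 through KO alone.

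Neuronal structure genes were lower in OE +Dox in 17 of 24 members and higher in 4. DCX, a microtubule protein of migrating neurons, had 6620, 5530, 5842, 6834 and 6044 in KO and 911, 954 and 733 in OE +Dox (log2 fold -2.84, SE 0.13, adjusted p = 2.2e-11). STMN2, a tubulin-binding protein of growing axons, had 3966, 3645, 4488, 3778 and 4172 and 881, 781 and 670.1, and TUBB3, the neuronal tubulin, fell (KO 161 to 228, OE +Dox 64.5 to 86.8). CNTN2, an axonal adhesion molecule, went the other way, from 156, 116, 139.8, 169 and 102 in KO to 6419, 7107 and 5422 in OE +Dox (log2 fold 5.54, SE 0.18, adjusted p = 1.9e-13). The neurofilament NEFM rose, with a log2 fold of 1.32. Receptor and channel genes fell in 14 and rose in 2 of 19 tested members, 3 of which passed through KO alone. Among the falls was the sodium channel subunit SCN3B (log2 fold -2.89). Among 30 guidance genes 10 rose and 12 fell, with 3 passing through OE +Dox alone and 1 through KO alone. Over all genes tested 17.1% were called higher and 16.0% lower. SEMA3E, a repellent, had 1.85, 1.89, 5.67, 5.39 and 2.68 in KO and 1358, 1574 and 1179 in OE +Dox, and NTN1, the ventral midline attractant, fell (KO 851 to 1043, OE +Dox 211 to 276).

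GABAergic genes fell in 9 and rose in 5 of 17 tested members, with 4 passing through KO alone. The shares over all genes tested were 16.0% lower and 17.1% higher. The 2 enzymes that make GABA moved apart. GAD2 had 217, 255, 353, 304 and 223 in KO and 32.3, 44.6 and 5.53 in OE +Dox (log2 fold -3.63, SE 0.48, adjusted p = 4.3e-05). GAD1 had 864, 532, 758, 656 and 625 in KO and 2525, 2848 and 3313 in OE +Dox (log2 fold 2.09, SE 0.26, adjusted p = 9.9e-06), above WT at 215 to 265. SLC32A1, which loads GABA into vesicles, fell with GAD2, from 227, 291, 246, 219 and 207 in KO to 19.4, 32.5 and 15.7 in OE +Dox. DLX1 fell (KO 779 to 1259, OE +Dox 54.4 to 158).

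The host genes of miR-9, a microRNA of neural progenitors that favours their differentiation, were among the 12 largest falls. MIR9-3HG had 1069, 1097, 1331, 1535 and 1453 in KO and 57.3, 69.7 and 12 in OE +Dox (log2 fold -5.09, SE 0.54, adjusted p = 1.3e-05). LINC00461 had 1431, 1383, 1507, 1639 and 1042 and 85.9, 138 and 6.45 (log2 fold -4.95, SE 0.75, adjusted p = 2.5e-04), and MIR9-1HG had 632, 477, 350.5, 505 and 763 and 23.1, 71.6 and 8.30 (log2 fold -4.38, SE 0.70, adjusted p = 3.8e-04). Every OE +Dox library was below every KO library, and OE +Dox replicate 3 was the lowest for all 3. LINC00461 and MIR9-1HG passed the filter through KO alone, as did MIR7-3HG below, which favours a difference. In GENCODE 44 on hg38 each hairpin lies within its host and overlaps an exon of it on the same strand, MIR9-1 at chr1:156420341-156420429, MIR9-2 in LINC00461 at chr5:88666853-88666939 and MIR9-3 at chr15:89368017-89368106. The 3 hairpins give the same RefSeq mature miR-9-5p. Another of these falls, MIR7-3HG (194, 149, 216, 235 and 296 in KO, 22.2, 16.7 and 5.53 in OE +Dox), hosts MIR7-3 in an intron at chr19:4770670-4770779. The mature sequences are shown because the reads measure the hosts and not these products, with the seed (bases 2 to 8) in capitals.
miR-9-5p: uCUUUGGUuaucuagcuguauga
miR-7-5p: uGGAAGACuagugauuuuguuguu
The seeds CUUUGGU and GGAAGAC differ. The miR-9 hosts also showed that the references are not alike, since MIR9-3HG stood at 24.3 to 71.0 in WT, near OE +Dox, and at 536 to 1505 in OE -Dox, near KO.

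Few cell cycle genes were called, beside 33.1% of all genes tested. Of 30 G2/M genes 1 was called higher, HMMR, a spindle protein, at 0.97 on the log2 scale (SE 0.33, adjusted p = 0.033), and the median of the list was -0.0042. MKI67, the common proliferation marker, had 1976, 2272, 1948, 2904 and 2115 in KO and 1989, 1424 and 2274 in OE +Dox, and the groups overlapped (log2 fold -0.25, SE 0.16, adjusted p = 0.26). TOP2A also overlapped, at 3522 to 4549 and 2301 to 3853. Of 27 G1/S and replication genes 1 rose (CCNE1) and 2 fell (CCNE2 and UNG), with adjusted p of 0.046, 0.048 and 0.029. These calls rested on single libraries. Leaving out 1 library gave 0 to 7 G1/S members called lower, the 7 without KO replicate 1, and 0 higher in 6 of 8 cases. It gave 0 to 3 G2/M members called higher, the 3 without OE +Dox replicate 2, and 3 lower without OE +Dox replicate 3. Of 15 D cyclin, MYC and CDK inhibitor genes tested 3 rose and 3 fell. CDKN2B, which passed the filter through OE +Dox alone, rose (KO 0.924 to 4.72, OE +Dox 38.8 to 109). CDKN1B fell (KO 689.9 to 866, OE +Dox 456 to 545), as did CDKN2D and CDKN2C, each with a log2 fold of -0.64. The CDKN2C call was lost in 3 of the alternative runs. Of 17 p53 targets 0 rose and 6 fell, among them BBC3, a pro-apoptotic gene, with a log2 fold of -1.14. Of 17 unfolded protein and amino acid stress genes 6 rose, among them the chaperone HSPA5 (log2 fold 0.54) and the cystine transporter SLC7A11 (1.69), and 2 fell, 1 of them without OE +Dox replicate 1 or 3. Of 18 hypoxia and glycolysis genes 1 rose, the glucose transporter SLC2A1 (log2 fold 1.60, adjusted p = 0.017), a call lost without OE +Dox replicate 1 or 2.

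Markers of other cell types went in different directions by type, and their part in the results above was not tested. Mesenchymal, epithelial and choroid plexus lists had more members higher than lower in OE +Dox, whereas pluripotency genes had more lower and the summed neural crest level overlapped between the groups. Of 20 mesenchyme and matrix genes tested 15 rose and 1 fell. Of the 20, 9 passed the filter through OE +Dox alone, and the summed level of the 22 listed was 4936 to 6267 in KO and 13137 to 19267 in OE +Dox. PRRX1, a mesenchymal homeobox gene, had 2.77, 1.89, 0.945, 1.80 and 0 in KO and 310.3, 269 and 229 in OE +Dox (log2 fold 6.89, SE 0.45, adjusted p = 1.5e-09). COL3A1 and COL1A1, fibrillar collagens, varied among the OE +Dox libraries. COL3A1 had 21.2, 15.1, 16.1, 28.7 and 5.37 in KO and 2210, 3175 and 481 in OE +Dox, and COL1A1 had 138, 124, 31.2, 86.2 and 104 and 1008, 1352 and 251. The library numbered 2 held most COL3A1 in WT (15.1, 1023 and 91.0), in OE -Dox (35.7, 812 and 69.8) and in OE +Dox. FBN1, a matrix microfibril gene, was more even, with 85.9 to 136 in KO and 703 to 1131 in OE +Dox.

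Of 8 epithelial genes tested 7 rose and 0 fell, with 5 passing through OE +Dox alone (summed level 105 to 170 in KO, 416 to 938 in OE +Dox), with KRT19 at 10.2, 9.44, 11.3, 8.08 and 8.95 and 114, 253 and 189. KRT5 had 0 reads in all 5 KO libraries and 26.8, 13.9 and 29.5 in OE +Dox. Against 3 reads per KO library, its OE +Dox mean was at least 8.47-fold higher and its lowest OE +Dox library at least 4.92-fold higher. Of 10 choroid plexus genes 6 rose and 0 fell, with 3 passing through OE +Dox alone (summed level 1668 to 2623 and 4873 to 6462), but its defining gene TTR had 5.54 to 46.1 in OE +Dox and at most 1.89 in KO, below the filter. Of 10 neural crest and pigment genes 6 rose and 3 fell, with 4 passing through OE +Dox alone (summed level 1116 to 2306 and 995 to 1972), and the crest gene SOX10 had 0 reads in every library. Of 8 oligodendrocyte and astrocyte genes tested 4 rose and 3 fell (summed level 1878 to 2504 and 1233 to 1743). Of 2 muscle genes tested, each passing the filter through 1 group alone, the cardiac actin ACTC1 rose and the embryonic myosin MYH3 was not called (summed level 28.6 to 48.2 and 46.1 to 187). The defining muscle genes DES and MYOD1 stayed below the filter, at 0 to 7.55 and 0 to 3.78 in KO and at most 0.929 and 0.923 in OE +Dox. Of 3 endothelial and blood genes tested, all 3 passing through OE +Dox alone, 2 were called higher, KDR and CD34, so the filter bears on this count. The summed level was 9.24 to 19.7 in KO and 124 to 165 in OE +Dox. PECAM1 was at most 0.929 in both groups and PTPRC at most 3.69. Pluripotency genes fell in 3 of 7 tested members (DPPA4, HMGA2 and LIN28B) and rose in 0, beside 16.0% of all genes called lower. The LIN28B call (log2 fold -0.44, adjusted p = 0.036 from limma) was lost in 8 of the alternative runs. The defining genes were near absent, with NANOG at 0 reads in both groups and POU5F1 at most 1.84.

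Several of the largest changes fell outside every list. Of those given here, TMEM132C, EGFLAM, ISM1, TRDC and GZMA passed the filter through OE +Dox alone, and FGD3 and ACSS1 through KO alone. The filter thus favoured their differences. TMEM132C, a membrane protein, had 4.62, 5.67, 0, 10.8 and 1.79 in KO and 2175, 4483 and 3796 in OE +Dox (log2 fold 9.65, SE 0.60, adjusted p = 3.6e-08). EGFLAM, a matrix protein of synapses, had 1 read over the KO libraries and 553, 753 and 444 in OE +Dox, and ISM1, a secreted protein, had 0.924, 0.944, 0, 0.898 and 3.58 and 622, 1018 and 1033. TRDC, the constant segment of the T cell receptor delta chain, had 0 reads in all 5 KO libraries and 764, 743 and 288 in OE +Dox. Against 3 reads per KO library, its OE +Dox mean was at least 216-fold higher and its lowest OE +Dox library at least 101.5-fold higher. GZMA, a protease of cytotoxic lymphocytes, had 1 KO read and 456, 373 and 434 in OE +Dox, a ratio of 2228 with an exact 95% counting interval of 410 to 90370. Strand was not stated for the counting, so reads from these loci and from an overlapping or antisense transcript cannot be told apart. TRAC had 63.7, 80.9 and 43.3 in OE +Dox, whereas CD3D, CD3E and CD2 had 0 reads there and CD3G had 1 read. Among the falls, GRIK3, a kainate receptor subunit, had 2528, 2105, 1783, 2522 and 1781 in KO and 111, 139 and 42.4 in OE +Dox (log2 fold -4.59, adjusted p = 7.9e-08). FGD3, an exchange factor for CDC42, fell (KO 203 to 347, OE +Dox 2.77 to 12.1), ACSS1, the mitochondrial acetyl-CoA synthetase, fell (KO 150.2 to 267, OE +Dox 1.84 to 12), and VEPH1 fell (KO 406 to 710.5, OE +Dox 26.7 to 36.9).

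The references were placed on a scale from 0, the KO mean, to 1, the OE +Dox mean, of the log2 level. Over the 2816 genes called higher the median position was 0.32 for WT and 0.13 for OE -Dox, and over the 2640 called lower 0.38 and 0.11. Both references lay between the extremes for 53.3% of genes called higher and 53.7% of those called lower, beside 29.2% of all genes tested. OE -Dox was nearer to KO than to OE +Dox for 88.3% of the genes called higher, and WT for 67.0%. These positions are descriptions of means, taken from the libraries that also chose the called genes, and carry no test.

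For the 19 called genes of the WNT feedback list the median position was 0.10 for WT and 0.16 for OE -Dox, but members varied. LGR5, a stem cell receptor for R-spondins, was at 1.03 and 1.02, the helix-loop-helix inhibitor ID2 at 1.499 and 0.72, and TNFRSF19 at 0.65 and 0.41. NKD1 was at 0.09 and 0.04, and RNF43, with 0.947 to 6.93 in WT, lay outside on the KO side. For the 15 called dorsal telencephalon and hem genes the medians were 0.79 and 0.72, with PAX6 past OE +Dox at 2.17 and 1.52. For the 9 called SHH genes the medians were 1.26 and 0.68. SHH, GLI1 and GLI2 were past OE +Dox in WT, at 2.01, 1.31 and 1.26, whereas DISP1 and FOXF1 were near KO, at 0.03 and 0.11. The 20 called BMP genes had medians of 0.85 and 0.33, whereas the 17 called FGF genes had 0.05 and 0.00. MGE regulators had 0.46 for WT and 0.05 for OE -Dox over 13 called members.

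**Figure D5:**
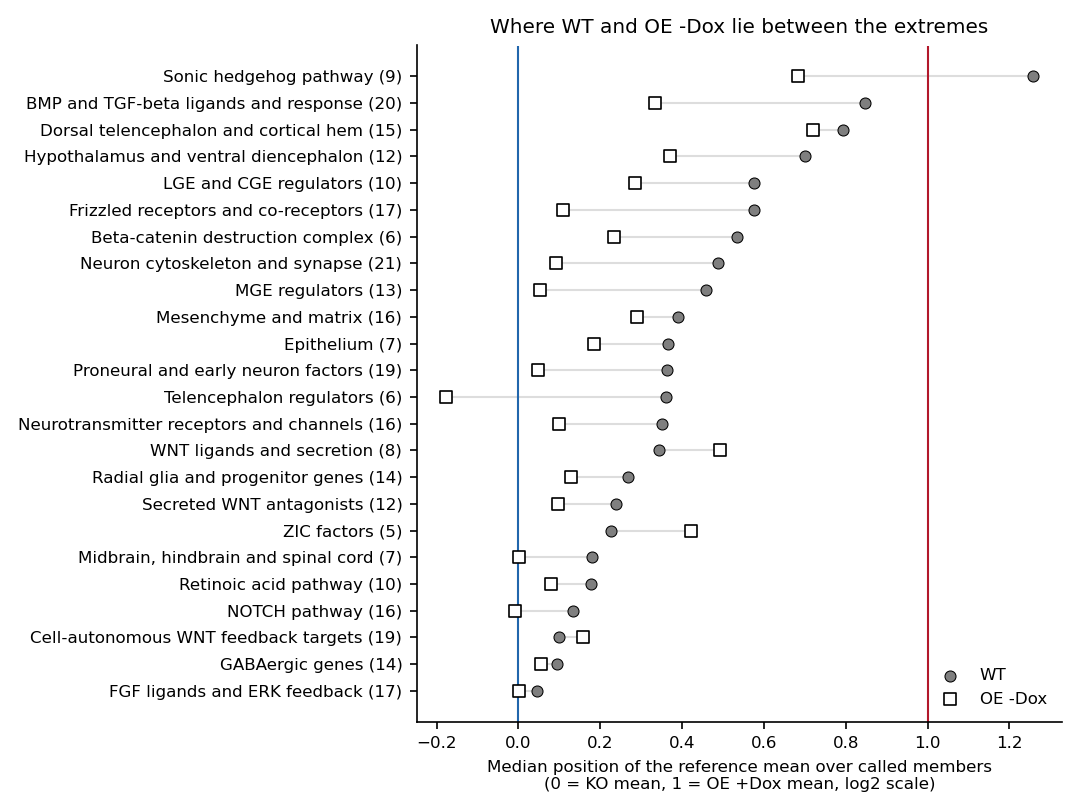
Median position of the WT mean (grey circles) and the OE -Dox mean (open squares) between KO (0, blue line) and OE +Dox (1, red line) on the log2 scale, over the called members of each list with at least 5 of them (number in brackets). The medians of the WNT feedback list are 0.10 and 0.16, and those of the SHH pathway list 1.26 and 0.68.

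Some genes rose or fell in steps with both references well inside. COLEC12, a scavenger receptor, had 1.80 to 3.78 in KO, 73.2 to 166 in OE -Dox, 76.0 to 127 in WT and 826 to 1496 in OE +Dox. RADX, a protein of replication forks, fell in the same order through 1189 to 1437, 652 to 955, 245 to 313 and 127 to 199, and HPCAL4, a neuronal calcium sensor, through 349 to 672, 173 to 321, 73.6 to 141 and 28.6 to 56.7. The 2 references overlapped with each other for COLEC12, but not for RADX or HPCAL4.

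In other genes both references lay above, or both below, the 2 extremes. CRABP1, a retinoic acid carrier, had 73.9, 109, 117, 117 and 80.5 in KO and 76.6, 159 and 135 in OE +Dox and was not called (log2 fold 0.27, SE 0.28, adjusted p = 0.49), yet its references had 342, 487 and 716 in WT and 883, 830.0 and 476 in OE -Dox. SFRP2, a secreted WNT antagonist, was also not called, at 377 to 554 in KO and 306 to 511 in OE +Dox, with 1609 to 3476 in WT and 1040 to 1136 in OE -Dox. NR2E1, a progenitor nuclear receptor, fell between the extremes (log2 fold -2.19), at 55.5 to 358 in KO and 10.1 to 53.9 in OE +Dox, below 629 to 1358 in WT and 471 to 502 in OE -Dox. The opposite held for DACT1, a Dishevelled-binding modulator of WNT signals, which had 105 to 167 in KO and 610.4 to 882 in OE +Dox, above 35.5 to 97.5 in WT and 64.4 to 93.3 in OE -Dox, and which was called higher in OE +Dox (log2 fold 2.48, SE 0.27, adjusted p = 1.0e-06). The NR2E1 call was lost without OE +Dox replicate 3 (adjusted p = 0.10).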

How the data were processed

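RNA-seq was made from 14 libraries of 4 groups, of which 8 are compared. The authors deposited 1 table of normalized counts for 58051 Ensembl genes, a signal in which reads are divided by 1 size factor per library. Per the submitters' processing notes, TopHat2 2.1.1, HTSeq 0.9.1, R 3.4.0, DESeq2 and hg38 were used, and the strand setting of the counting is not given in the sources used here. Whole reads were recovered from 100% of values (tolerance 0.01), which gave 5233270 to 5639725 reads per library. Exact intervals and the floor of 3 reads cover counting error only. Symbols and positions are from GENCODE 44, and all columns of values were mapped to a sample.

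Testing used genes that reached 10 in 3 or more of the 8 libraries, with limma 3.58.1 (R 4.3.3) on log2(value + 1), so folds of low genes are understated. The fit held 14 libraries in 4 groups, with trended and robust variance, and calls use Benjamini-Hochberg adjusted p under 0.05 over all genes tested. The procedure was tested on simulated data. Alternatives changed the pseudocount, filter, scaling, weights, libraries and replicate block, or used edgeR 4.0.16 and DESeq2 1.42.0 on the recovered reads.

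Members and gene lists were chosen with earlier results of these data known. Named genes are CTNNB1, the 12 largest rises and 12 largest falls among called genes whose mean reached 100 and whose groups did not overlap, per list the 4 called genes of lowest adjusted p (where nothing was called, the 2 of highest mean), and the genes whose 2 references lie most evenly between, or furthest above or below, the extremes. A selection of these is printed, with cell type markers. Picked after their values were seen were RNF43, ZNRF3, TBXT, CDX1, CDX2, CCND1, KREMEN1, APCDD1, WIF1, FRZB, FZD5, DVL2, TCF7L1, LHX2, PTCH1, SHH, SPRY4, VIM, NEUROG1, NEUROG2, EOMES, NEFM, LGR5, ID2, GAD1, MKI67, TOP2A, ZIC1, TBX3, TRAC and the CD2 and CD3 genes, and members named only as the content of a count. Results for some genes are not reported here.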

Additional observations from a re-analysis of the deposited data

Results flagged for a closer look

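Among the 5 KO libraries, 1 library stood apart from the other 4 for 16 of 218 genes examined, by Dixon's test at its 95% critical value of 0.71, and for 0 of 4 library measures. Chance alone flags about 5% of such groups. The 16 fell on all 5 libraries, 2 to 4 on each. Groups of 3 libraries were not examined. For 7 of the 16 genes the reading rests on 1 read against 0.

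Among genes with many reads, KO replicate 2 had 265 normalized counts of SPRY4, an inhibitor of FGF signalling, against 22.5 to 73.4 in the other 4, and 191 of IFITM3, an interferon-induced membrane protein, against 117 to 138. KO replicate 4 had 131 of LEF1 against 76.1 to 86.9. KO replicate 1 had 1043 of NTN1 against 851 to 906, and KO replicate 5 had 2865 of VIM against 3812 to 4171. For LEF1, NTN1 and VIM every KO library stayed on its own side of the OE +Dox libraries.

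Near the limit of detection, KO replicate 1 had 2.77 of TFAP2A, a neural crest and epidermal factor, against 4.47 to 4.72, and 0 of FGF18 against 1.79 to 1.89. KO replicate 4 had 0 of DKK2 against 0.895 to 0.945, and KO replicate 5 had 3.58 of ISM1 against 0 to 0.944. A single read, against 0 in the other 4 KO libraries, gave FGF20 and CDX1 0.944 in KO replicate 2, WNT10A, GZMA and CDX2 0.945 in KO replicate 3, and EN1 and EGFLAM 0.895 in KO replicate 5.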

How the results depend on the processing

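Called genes numbered 2816 higher and 2640 lower in OE +Dox. These 2 counts stayed within 1.5 times and CTNNB1 kept its call under every alternative run, and no gene called here took the other sign in any of them. Calls of at least 2-fold moved with the filter: 2286 higher with no filter (main value 1495), and 909 higher and 862 lower (main value 1336) with a filter of 50, which tests fewer genes. Leaving out 1 library gave 2275 to 2752 genes higher and 2055 to 2551 lower, the lowest of both without OE +Dox replicate 3. The median log2 folds of 2 lists reversed with a filter of 50, which drops members: neural crest and pigment to -1.14 from 1.92, and oligodendrocyte and astrocyte to -0.37 from 0.39. Upper-quartile scaling moved the median of all genes by -0.03 and the share of higher calls from 51.6% to 47.7%. Between OE +Dox and KO, deviations of libraries with the same number correlated at 0.17, -0.05 and 0.04. Different numbers gave -0.28 to 0.21, so the numbers were not taken to pair the groups compared. Deviations with the same number correlated at 0.22, 0.24 and 0.43 between OE +Dox and OE -Dox, and at 0.23, 0.18 and 0.30 between WT and OE -Dox. Between KO and OE -Dox the values were 0.242, 0.055 and 0.125. With the replicate block, 3026 genes were called higher and 2713 lower, beside 2571 and 2298 in the same libraries without it. At 5233270 to 5639725 reads per library, genes with 0 to 3 KO reads have ratios known only as bounds or wide intervals.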

Other observations

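Genes of the interferon response and antigen presentation were higher in OE +Dox in 7 of 15 tested members and lower in 0, beside 17.1% of all genes called higher. IFITM2, an antiviral membrane protein, had normalized counts of 40.6, 52.9, 57.6, 49.4 and 45.6 in KO and 131, 178 and 127 in OE +Dox (log2 fold 1.54, SE 0.18, adjusted p = 2.9e-06 from limma). Without OE +Dox replicate 3 the median log2 fold of the list was 1.07 in place of 0.52, and without OE +Dox replicate 1 a member was called lower. Of 13 mitochondrially encoded genes 5 rose and 0 fell, and 3 were called without OE +Dox replicate 1. Of 22 cytosolic ribosome genes 2 rose, and 1 was called without OE +Dox replicate 1 or 3.

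Ventral diencephalic and guidance genes held further separated members. FOXD1, a forkhead factor of the hypothalamus, had 6.47, 5.67, 4.72, 8.98 and 18.8 in KO and 179, 333 and 182 in OE +Dox. TBX3, a T-box factor of the ventral hypothalamus, had 0 reads in all 5 KO libraries and 21.2, 48.3 and 23.0 in OE +Dox. Against 3 reads per KO library, its OE +Dox mean was at least 11.2-fold higher and its lowest OE +Dox library at least 7.49-fold higher. SEMA3C, a secreted semaphorin, had 65.6, 53.8, 71.8, 79.1 and 70.7 in KO and 1769, 1046 and 635 in OE +Dox, and PLXNA4, a semaphorin receptor, had 178, 155, 166, 290.2 and 197 and 39.7, 43.7 and 30.4. The groups did not overlap for any of these 4 genes, as for 87.7% of all called genes. FOXD1 and TBX3 passed the filter through OE +Dox alone.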
